A study of Rattus norvegicus with 9 samples.

Results

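The 10 genes described here encode enzymes that make, desaturate, and elongate fatty acids. They were chosen by name (Acly, Acaca, Fasn, Scd, Fads1, Fads2, Fads3, Elovl1, Elovl5, and Elovl6) among the 35362 genes of the deposited table, and all 10 passed the filter on low counts that left 14770 genes for testing. Adipose-derived mesenchymal stem cells (ASCs) are fibroblast-like progenitors that grow out of digested fat on plastic. They were taken from inguinal subcutaneous fat (SASCs), perirenal fat (PASCs), and epididymal fat (EASCs) of male Sprague Dawley rats aged 6 weeks that were fasted before the cells were isolated, and their RNA was sequenced at passage 3, with 3 samples in each group. No group carried an engineered allele or received an agent, and the fast was common to all, so the groups differ in the depot of origin, and the cells were a plastic-adherent culture rather than a sorted population. The methods describe the replicates as wells of cultured cells, and the animals behind each well are not given in the sources used here, so the p-values below measure the spread between these samples, which may be technical. The comparisons ask how the cells of the 3 depots differ in the expression of lipid-making genes.

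Fatty acid synthesis starts in the cytosol, where Acly cleaves citrate into acetyl-CoA, Acaca carboxylates acetyl-CoA to malonyl-CoA, and Fasn joins these units into palmitate. Elongases of the Elovl family then lengthen the chain in the endoplasmic reticulum. Stearoyl-CoA desaturases place the first double bond in saturated chains, while Fads1 and Fads2 add double bonds to polyunsaturated chains from the diet. Most of these genes are known targets of the SREBP transcription factors, which are held back when sterols are plentiful, and of LXR, which is activated by oxysterols. In fat cells the pathway is switched on during differentiation, and progenitors usually express it at a lower level.

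A few rows of the table need a word on identity. The row named Scd carries the identifier 83792 and the description of stearoyl-Coenzyme A desaturase 2, and RefSeq now calls this gene Scd2. The gene that RefSeq now calls Scd, identifier 246074, is the row named Scd1, which is not among the 10 genes and was added beside them after its values were seen. Both desaturases lie on chromosome 1, Scd at chr1:264059374-264072433 on the plus strand and Scd1 at chr1:264159966-264173061 on the minus strand. The Fads genes also lie on chromosome 1, with Fads1 at chr1:226234038-226249118 (plus), Fads3 at chr1:226091774-226108332 (plus), and Fads2 at chr1:225906582-226152568 (minus). The Fads2 row therefore spans 245987 bases and covers the whole of Fads3 on the other strand, and also Fth1 with 15427 to 53766 counts per sample and Best1 with 1531 to 5276. The Elovl6 row at chr2:234187490-234296124 (minus) lies near a second row, LOC102549542, described as Elovl6-like, at chr2:234375172-234486639 (plus), which was likewise added after its values were seen. Whether the counting used strand is not given in the sources used here, so reads could have been shared between the overlapping rows of Fads2 and Fads3. The Elovl6 row overlaps Ccdc109b on the same strand, and the LOC102549542 row overlaps it on the opposite strand, and Ccdc109b had 48 to 144 counts per sample. Scd and Scd1 do not overlap, nor do Elovl6 and LOC102549542 overlap each other, but each pair is alike in sequence by description, and how reads matching several genes were treated is not given either. The values of these rows are uncertain to that extent. The remaining rows lie on chromosomes 10 (Acly, chr10:88392248-88443888; Acaca, chr10:71519392-71719910; Fasn, chr10:109987735-110005901), 5 (Elovl1, chr5:137257287-137260483), and 8 (Elovl5, chr8:85220947-85287449). Positions are those of the deposited table, for which the methods name rn6.

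Because the Fads genes lie side by side and moved in opposite directions, and because the stearoyl-CoA desaturase copies differed in their pattern over the depots, the 250 bases before the start site of each of these 5 genes are shown. They come from RefSeq (GRCr8), were matched by gene identifier, and are written 5′ to 3′ on the strand of the gene. Capitals mark the letters CCAAT, the core of the NF-Y box, and GGGCGG, the GC box bound by Sp1, each on either strand, so that ATTGG and CCGCCC are in capitals too. The windows are chr1:216252442-216252691 (plus) for Fads1, chr1:216172034-216172283 (minus) for Fads2, chr1:216110623-216110872 (plus) for Fads3, chr1:253118127-253118376 (plus) for Scd, and chr1:253231732-253231981 (minus) for Scd1.
Fads1: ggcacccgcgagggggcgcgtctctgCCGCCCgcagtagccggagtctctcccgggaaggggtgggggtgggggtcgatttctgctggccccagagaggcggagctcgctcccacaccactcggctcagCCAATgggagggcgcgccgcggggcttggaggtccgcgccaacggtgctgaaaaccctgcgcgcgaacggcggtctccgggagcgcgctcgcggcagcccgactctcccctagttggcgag
Fads2: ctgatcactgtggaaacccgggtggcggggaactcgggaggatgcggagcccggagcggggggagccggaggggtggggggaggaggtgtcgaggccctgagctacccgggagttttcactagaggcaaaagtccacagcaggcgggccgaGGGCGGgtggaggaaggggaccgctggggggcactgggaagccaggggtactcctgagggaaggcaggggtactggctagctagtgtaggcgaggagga
Fads3: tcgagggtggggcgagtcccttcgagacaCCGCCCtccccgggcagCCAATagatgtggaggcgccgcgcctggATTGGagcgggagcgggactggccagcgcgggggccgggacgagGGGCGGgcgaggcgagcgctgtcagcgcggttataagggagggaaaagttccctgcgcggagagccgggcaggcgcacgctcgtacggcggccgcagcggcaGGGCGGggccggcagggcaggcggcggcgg
Scd: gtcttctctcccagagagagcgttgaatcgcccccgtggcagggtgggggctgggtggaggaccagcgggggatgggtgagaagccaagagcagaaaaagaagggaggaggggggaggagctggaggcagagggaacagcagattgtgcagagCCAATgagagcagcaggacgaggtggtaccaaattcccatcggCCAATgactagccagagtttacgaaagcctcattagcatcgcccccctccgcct
Scd1: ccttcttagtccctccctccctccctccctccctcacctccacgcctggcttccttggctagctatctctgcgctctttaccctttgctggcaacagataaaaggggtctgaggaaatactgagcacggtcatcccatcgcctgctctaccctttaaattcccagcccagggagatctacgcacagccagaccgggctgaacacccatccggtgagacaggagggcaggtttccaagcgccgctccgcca

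The Fads1 window held CCAAT and GGGCGG once each, the Fads2 window held GGGCGG alone, and the Fads3 window held both motifs more than once. The Scd window held CCAAT in a pair of copies, and the Scd1 window held neither motif. The letters CCAAT occurred in 34.0% and GGGCGG in 30.5% of the 33469 RefSeq promoter windows of this length. Of the 8 windows found for the 10 genes and Scd1, 5 held CCAAT and 4 held GGGCGG. The E-box CACGTG, found in 5.59% of all windows, was in the Elovl5 window, and the sterol element TCACNCCAC, found in 0.974%, was in none of the 8. These matches describe the letters of the windows and not sites that a factor was seen to bind. A window without a match lacks only these letters, and no binding was measured.

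Levels between genes are compared as CPM (a count scaled by library size after TMM normalization) divided by the length of the gene in kilobases. On this scale Scd was the most abundant of the 10 genes in each of the groups, at 327 ± 2.93 CPM per kilobase in SASCs, 294 ± 12.7 in PASCs, and 100 ± 2.98 in EASCs (SD, n = 3 each). The gene in the next place differed between the depots. In SASCs it was Fads1 at 106 ± 2.1 CPM per kilobase, followed by Elovl5 at 72.9 ± 2.49. In PASCs it was Fads3 at 74.4 ± 2.19 CPM per kilobase, followed by Elovl5 at 60.9 ± 3.15. In EASCs it was also Fads3, at 64.7 ± 3.44 CPM per kilobase. Acly at 52.7 ± 1.61 and Elovl1 at 51.3 ± 1.30 CPM per kilobase in PASCs did not differ beyond their spread. Acaca, between 6.08 and 9.26 CPM per kilobase in the group means, and Elovl6, between 0.182 and 1.04, were the lowest of the 10 in every group.

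**Figure D1:**
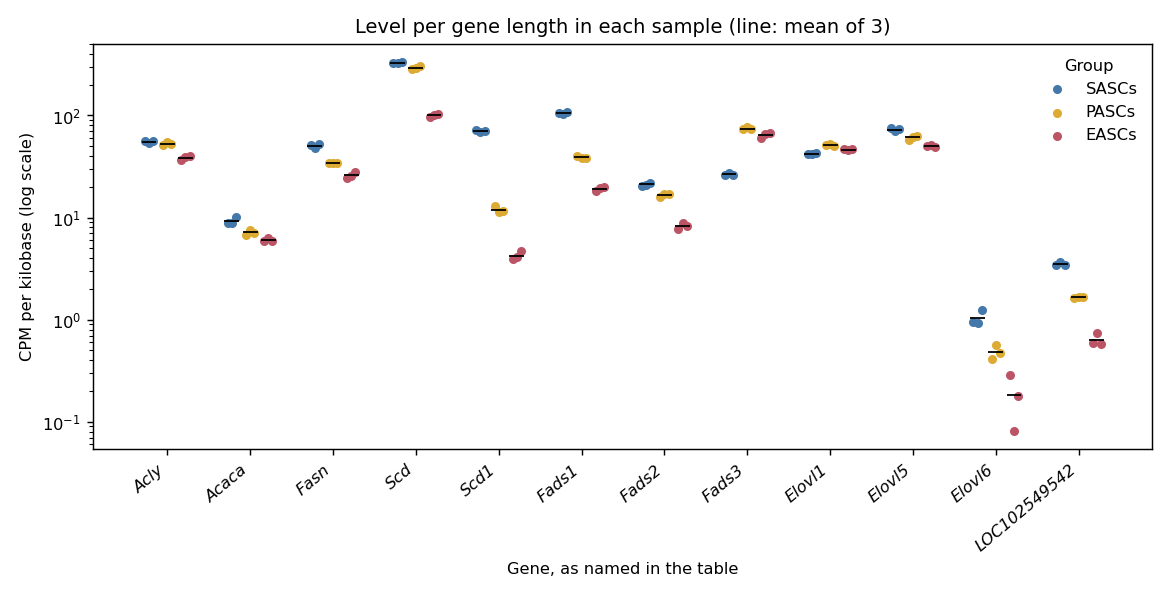
The plot gives CPM per kilobase of gene length on a log axis for each sample (points) and each group mean (lines) of the 10 genes, Scd1, and LOC102549542. Levels fell in the order SASCs, PASCs, EASCs for most genes, while the 3 SASCs samples were the lowest for Fads3 and Elovl1.

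The CPM of the 10 genes summed to 3177 ± 53.9 in SASCs, 2631 ± 75.0 in PASCs, and 1353 ± 44.4 in EASCs (SD, n = 3 each), and the groups did not overlap. Scd alone made up 52.0% ± 0.509 of this sum in SASCs, 56.4% ± 0.927 in PASCs, and 37.4% ± 0.122 in EASCs. The sum without Scd was 1525 ± 41.1 CPM in SASCs, 1145 ± 19.6 in PASCs, and 846 ± 29.4 in EASCs, again without overlap.

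At an adjusted p-value under 0.05, 8 of the 10 genes fell and 2 rose in EASCs against SASCs, where 34.3% of all genes tested fell and 35.5% rose. With the further condition of a fold change above 2, which defines a DEG here, 4 genes fell (Elovl6, Fads1, Scd, and Fads2) and 1 rose (Fads3), where 14.2% of all genes were DEGs with lower and 13.6% with higher expression. In PASCs against SASCs, 7 genes fell, 2 rose, and Acly did not pass, beside 34.6% of all genes that fell and 34.6% that rose. Of these, 2 were DEGs with lower expression (Fads1 and Elovl6) and 1 was a DEG with higher expression (Fads3), beside 14.9% and 12.0% of all genes. In EASCs against PASCs all 10 genes fell, beside 14.5% of all genes that fell and 16.1% that rose, and 4 were DEGs with lower expression (Scd, Elovl6, Fads1, and Fads2), beside 2.20% of all genes, while none was a DEG with higher expression, beside 5.19%. Without TMM, or with limma on log2(FPKM + 1), 6 of the 10 passed in EASCs against PASCs in place of 10, since Acaca, Fads3, Elovl1, and Elovl5 did not, beside 7.14% and 6.66% of all genes that fell under these settings. The median log2 fold change of the 10 genes was -0.79 in EASCs against SASCs, -0.30 in PASCs against SASCs, and -0.43 in EASCs against PASCs, and the median of all genes tested was 0.01, -0.01, and -0.01. The first pair of comparisons shares the SASCs samples, so their values are not independent.

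Without TMM normalization the median of all genes shifted to -0.39 in EASCs against SASCs and to -0.33 in PASCs against SASCs, and the rise of Elovl1 turned into a difference of -0.26 and -0.049, above the shifted median in both. Without SASCs replicate 3 or PASCs replicate 1, DEGs with lower expression in PASCs against SASCs numbered 1 instead of 2. These counts stand beside 14.3% and 14.6% of all genes. Without EASCs replicate 1, those in EASCs against PASCs numbered 2 instead of 4, beside 2.01% of all genes.

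**Figure D2:**
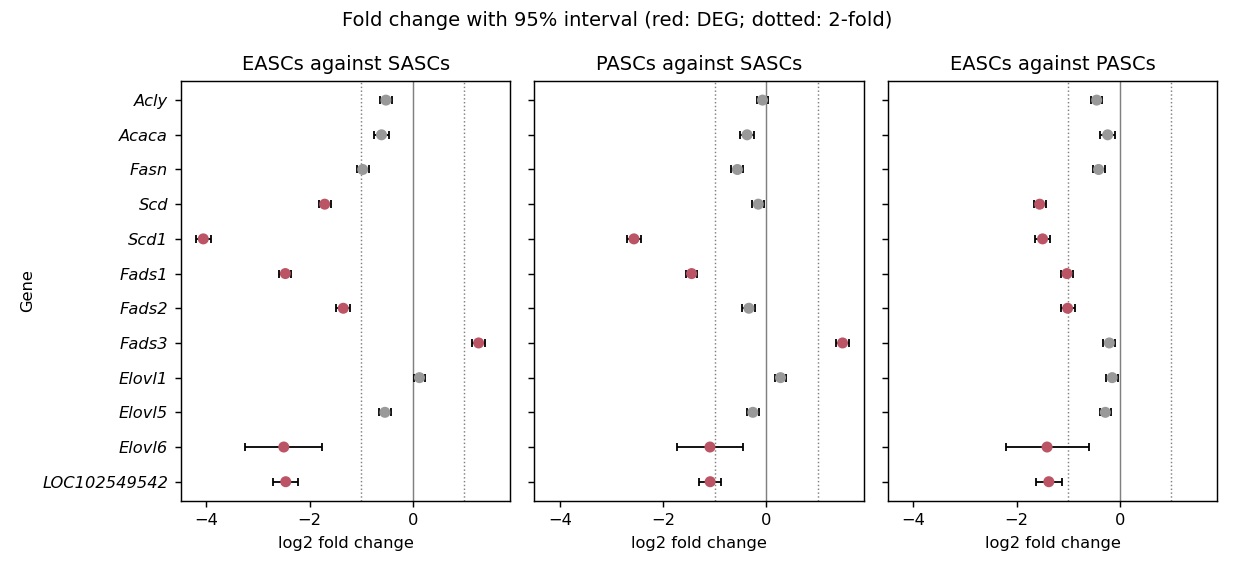
The panels give the log2 fold change (points) with its 95% interval (bars) of the 10 genes, Scd1, and LOC102549542 in the 3 comparisons. DEGs are in red, and dotted lines mark a fold change of 2. Fads3 is the gene far to the right of 0 in both comparisons with SASCs (1.28 and 1.48), and no gene lies to the right of 0 in EASCs against PASCs.

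The enzymes that supply and join the carbon units were lower in EASCs than in SASCs. Acly, ATP citrate lyase, was at 246, 240, and 249 CPM in the SASCs samples, 227, 241, and 232 in the PASCs samples, and 164, 173, and 176 in the EASCs samples. SASCs and PASCs overlapped, and EASCs lay below both. Its log2 fold change was -0.52 (95% interval -0.63 to -0.41, adjusted p = 1.46e-09) in EASCs against SASCs and -0.45 (adjusted p = 1.14e-07) in EASCs against PASCs. In PASCs against SASCs it was -0.07 with an interval of -0.18 to 0.04 (adjusted p = 0.227).

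Acaca, acetyl-CoA carboxylase alpha, catalyses the committed step of the pathway. It was at 61.0, 60.1, and 69.6 CPM in SASCs, 46.3, 52.4, and 48.5 CPM in PASCs, and 40.9, 43.6, and 40.7 CPM in EASCs, and the groups did not overlap. On the log2 scale the change was -0.60 (standard error, SE, 0.0694, adjusted p = 1.54e-08) in EASCs against SASCs and -0.37 (adjusted p = 3.04e-05) in PASCs against SASCs. The difference between EASCs and PASCs, -0.23 (adjusted p = 0.0118), was lost without PASCs replicate 2, when the adjusted p was 0.0987.

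Fasn, fatty acid synthase, carries out the whole cycle of chain growth on a single polypeptide. It was at 472, 440, and 475 CPM in SASCs, 311, 314, and 316 CPM in PASCs, and 222, 231, and 256 CPM in EASCs. The groups formed 3 separate steps. EASCs were 1.96-fold below SASCs, just under the fold change of a DEG, with a log2 value of -0.97 (SE 0.0577, adjusted p = 2.07e-14). It passed as a DEG without EASCs replicate 3 (-1.03), without SASCs replicate 2, without TMM (-1.37), and with limma on log2(FPKM + 1) (-1.34). The value was -0.56 (adjusted p = 1.71e-09) in PASCs against SASCs and -0.41 (adjusted p = 2.24e-06) in EASCs against PASCs. Against SASCs, the log2 fold changes of Fasn were larger than those of Acly, which precedes it in the pathway. The ratio of Fasn to Acly per kilobase was 0.913 ± 0.0222 in SASCs, 0.652 ± 0.0172 in PASCs, and 0.668 ± 0.0314 in EASCs (SD, n = 3 each).

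Scd, which places a double bond in stearate and palmitate, separated EASCs from the other groups. It was at 1645, 1643, and 1669 CPM in SASCs, 1432, 1468, and 1556 CPM in PASCs, and 490, 508, and 520 CPM in EASCs. All 3 EASCs samples lay far below the rest, and the PASCs samples lay slightly below the SASCs samples. EASCs were 3.26-fold below SASCs (adjusted p = 3.78e-20). The log2 fold change was -1.55 (SE 0.0563, adjusted p = 4.39e-18) in EASCs against PASCs, a 2.93-fold lower level. In PASCs against SASCs it was -0.15 (95% interval -0.27 to -0.04, adjusted p = 0.0152), and this call was lost without PASCs replicate 1 (adjusted p = 0.0772) or without PASCs replicate 2 (adjusted p = 0.0566).

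Its copy Scd1 followed another pattern. Scd1 was at 340, 331, and 340 CPM in SASCs, 62.1, 53.9, and 54.8 CPM in PASCs, and 18.5, 19.8, and 22.3 CPM in EASCs, so that PASCs lay nearer to EASCs than to SASCs. The log2 fold change was -2.56 (SE 0.0644, adjusted p = 8.59e-23) in PASCs against SASCs and -4.06 (adjusted p = 3.49e-26) in EASCs against SASCs, a 16.7-fold lower level. Between EASCs and PASCs the log2 fold changes of the copies were close, at -1.50 for Scd1 (95% interval -1.64 to -1.35) and -1.55 for Scd (-1.67 to -1.44). The ratio of Scd to Scd1 per kilobase was 4.64 ± 0.0576 in SASCs, 24.8 ± 2.66 in PASCs, and 23.8 ± 1.54 in EASCs (SD, n = 3 each). SASCs did not overlap with either other group in this ratio, and PASCs and EASCs overlapped. With the counts of the copies summed, the log2 fold change was -1.92 in EASCs against SASCs, -0.37 in PASCs against SASCs, and -1.55 in EASCs against PASCs.

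Fads1, the delta-5 desaturase that completes arachidonate and eicosapentaenoate, fell in both comparisons with SASCs. It was at 371, 366, and 381 CPM in SASCs, 142, 133, and 135 CPM in PASCs, and 64.3, 68.3, and 69.3 CPM in EASCs. The 3 groups formed separate steps here too. EASCs against SASCs gave a log2 fold change of -2.47 (SE 0.0557, adjusted p = 6.30e-24), a 5.54-fold lower level, and PASCs against SASCs gave -1.45 (adjusted p = 3.98e-19). Between EASCs and PASCs it was -1.02 (adjusted p = 1.81e-14), and the 2.03-fold difference fell under the fold change of a DEG without EASCs replicate 1, at -0.99.

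Fads2, the delta-6 desaturase that acts first on linoleate and alpha-linolenate, was at 75.7, 78.1, and 81.3 CPM in SASCs, 59.5, 63.1, and 63.7 CPM in PASCs, and 28.8, 32.5, and 31.0 CPM in EASCs. PASCs lay just below SASCs, and EASCs were clearly apart. On the log2 scale Fads2 changed by -1.35 (SE 0.0648, adjusted p = 1.88e-16) in EASCs against SASCs, -0.34 (adjusted p = 2.69e-05) in PASCs against SASCs, and -1.01 (adjusted p = 9.50e-13) in EASCs against PASCs. Without EASCs replicate 1 the last value was -0.96, also under the fold change of a DEG. The ratio of Fads1 to Fads2 per kilobase was 5.04 ± 0.131 in SASCs, 2.34 ± 0.160 in PASCs, and 2.32 ± 0.0827 in EASCs (SD, n = 3 each).

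Fads3, which resembles the other desaturases and acts on the sphingoid base of sphingolipids, rose in both groups of visceral origin. It was at 37.7, 39.8, and 37.8 CPM in SASCs, 105, 111, and 106 CPM in PASCs, and 87.6, 95.6, and 96.7 CPM in EASCs, and the groups did not overlap. The log2 fold change was 1.28 (SE 0.0603, adjusted p = 1.15e-16) in EASCs against SASCs and 1.48 (adjusted p = 4.11e-18) in PASCs against SASCs. The small difference between EASCs and PASCs, -0.20 (adjusted p = 0.00745), was lost without PASCs replicate 2 (adjusted p = 0.0556) or EASCs replicate 1 (adjusted p = 0.0596). Since the Fads2 row covers Fads3, their counts were also summed, although the genes moved in opposite directions against SASCs. The Fads2 row had 688 to 803 counts per EASCs sample and the Fads3 row 2093 to 2359, so Fads2 did not hold all reads of Fads3. The sum describes neither gene alone. The sum gave a log2 fold change of 0.088 (adjusted p = 0.158) in EASCs against SASCs, 0.54 (adjusted p = 1.61e-09) in PASCs against SASCs, and -0.45 (adjusted p = 2.02e-07) in EASCs against PASCs.

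Per kilobase, the balance of Fads1 and Fads3 thus turned over between the depots. In CPM, without the gene length, Fads1 stayed above Fads3 in PASCs (137 and 107 on average). It lay below Fads3 in EASCs (67.3 and 93.3), so in PASCs the turnover rests on the lengths given for the genes. Fads1 was 3.99 ± 0.184 times the level of Fads3 per kilobase in SASCs, 0.525 ± 0.0299 times in PASCs, and 0.297 ± 0.00432 times in EASCs (SD, n = 3 each). No groups overlapped in this ratio. Exact permutation tests (two-sided) covered 12 comparisons of the Fads1 to Fads3, Scd to Scd1, Elovl5 to Elovl1, and Fasn to Acly ratios. The exact permutation p was 0.1 wherever the groups did not overlap, the smallest p that 3 samples against 3 allow, with an adjusted p of 0.133. The test could therefore pass nowhere. These ratios were not among the planned comparisons, and Scd1 was added after its values were seen. The groups that overlapped were EASCs and PASCs, in the ratios of Scd to Scd1 (exact permutation p = 0.6), Elovl5 to Elovl1 (exact permutation p = 0.2), and Fasn to Acly (exact permutation p = 0.6).

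**Figure D3:**
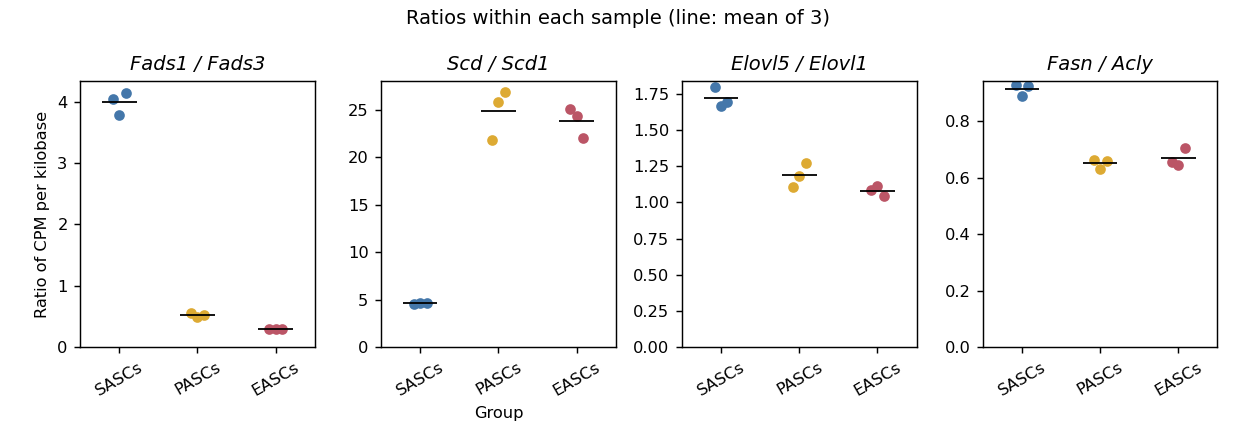
The panels give the ratio of CPM per kilobase between a pair of genes within each sample (points, with the group mean as a line) for SASCs, PASCs, and EASCs, on axes from 0. Fads1 / Fads3 stands near 3.99 in SASCs and below 1 in the other groups, and Scd / Scd1 stands near 4.64 in SASCs and above 20 in every sample of the other groups.

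The elongases split as well. Elovl5, which lengthens polyunsaturated chains between the steps of Fads2 and Fads1, was at 205, 191, and 200 CPM in SASCs, 157, 169, and 173 CPM in PASCs, and 138, 139, and 134 CPM in EASCs. The groups followed the same order as for Fasn without overlap, over a narrower range. Its log2 fold change was -0.54 (SE 0.0540, adjusted p = 1.19e-09) in EASCs against SASCs, -0.26 (adjusted p = 0.000122) in PASCs against SASCs, and -0.28 (adjusted p = 0.000188) in EASCs against PASCs. The last call was lost without TMM (adjusted p = 0.151) and with limma on log2(FPKM + 1) (adjusted p = 0.124).

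Elovl1, which makes the very long saturated and monounsaturated chains of sphingolipids, was at 61.7, 62.4, and 64.2 CPM in SASCs, 76.7, 77.6, and 73.9 CPM in PASCs, and 69.0, 67.7, and 69.5 CPM in EASCs. PASCs were highest and SASCs lowest, without overlap, but the differences were small. On the log2 scale they were 0.28 (SE 0.0559, adjusted p = 8.45e-05) in PASCs against SASCs, 0.13 (adjusted p = 0.0392) in EASCs against SASCs, and -0.15 (adjusted p = 0.0470) in EASCs against PASCs. The last pair of calls held in 7 and 5 of 18 alternative settings, with adjusted p-values up to 0.145 and 0.465 in the others. The ratio of Elovl5 to Elovl1 per kilobase was 1.72 ± 0.0707 in SASCs, 1.19 ± 0.0823 in PASCs, and 1.08 ± 0.0358 in EASCs (SD, n = 3 each).

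Elovl6, which lengthens palmitate to stearate, had few counts: 68, 54, and 64 in the SASCs samples, 27, 38, and 22 in the PASCs samples, and 17, 5, and 10 in the EASCs samples. In CPM the groups did not overlap, at 2.59 ± 0.461 in SASCs, 1.21 ± 0.197 in PASCs, and 0.454 ± 0.255 in EASCs (SD, n = 3 each). Differences on the log2 scale were -2.50 (95% interval -3.25 to -1.75, adjusted p = 8.66e-07) in EASCs against SASCs, -1.09 (-1.74 to -0.44, adjusted p = 0.00334) in PASCs against SASCs, and -1.41 (-2.21 to -0.60, adjusted p = 0.00669) in EASCs against PASCs. Without EASCs replicate 2, the sample with 5 counts, the last value was -1.05 (adjusted p = 0.0539). With limma on log2(FPKM + 1), a scale that understates the changes of low genes, Elovl6 was at -0.94, -0.61, and -0.33 in these comparisons (adjusted p = 6.89e-11, 5.20e-07, and 0.00840) and was a DEG in none. With limma on log2(CPM + 1) it was a DEG in EASCs against SASCs (-1.31) and in neither of the others (-0.70 and -0.61).

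The Elovl6-like row LOC102549542 had more counts and gave similar values. It was at 20.9, 22.7, and 21.2 CPM in SASCs, 10.1, 10.2, and 10.3 CPM in PASCs, and 3.60, 4.54, and 3.58 CPM in EASCs. Its log2 fold changes were -2.46 (SE 0.118, adjusted p = 1.56e-16), -1.09 (adjusted p = 4.99e-10), and -1.38 (adjusted p = 8.45e-10) in the same order of comparisons. With the counts of both rows summed, they were -2.47, -1.09, and -1.38.

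Of the 16 regulators and targets of SREBP and LXR control reported here, all of which were tested, 12 fell in EASCs against SASCs, 11 in PASCs against SASCs, and 6 in EASCs against PASCs, where 34.3%, 34.6%, and 14.5% of all genes fell. DEGs with lower expression among them numbered 7, 3, and 4, beside 14.2%, 14.9%, and 2.20% of all genes, and the 3 in PASCs against SASCs were near that share. Srebf1, the gene of the SREBP that drives fatty acid synthesis, was at 100 ± 5.63 CPM in SASCs, 85.9 ± 3.19 in PASCs, and 42.8 ± 1.96 in EASCs (SD, n = 3 each). In PASCs against SASCs it fell by 0.22 on the log2 scale (adjusted p = 0.00176), and EASCs were 2.01-fold below PASCs (adjusted p = 3.35e-13). Srebf2, which favours the sterol genes, fell by 0.71 on the log2 scale in EASCs against SASCs, by 0.14 in PASCs against SASCs, and by 0.56 in EASCs against PASCs.

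Insig1, a sterol-sensing retention factor that SREBP itself induces, was at 649 ± 15.4 CPM in SASCs, 235 ± 9.30 in PASCs, and 69.7 ± 2.41 in EASCs (SD, n = 3 each). It fell in both comparisons with SASCs, with a log2 value of -3.22 (adjusted p = 7.05e-26) in EASCs and -1.47 (adjusted p = 4.20e-19) in PASCs. The sterol synthesis genes Hmgcs1 and Sqle had log2 fold changes of -1.98 and -1.56 in EASCs against SASCs and of -0.36 and -0.56 in PASCs against SASCs. Pnpla3, a lipase-like gene of the lipid droplet, fell by 2.81 and 2.52 on the log2 scale in EASCs and PASCs against SASCs.

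Nr1h3, which encodes LXR alpha, fell by 0.60 on the log2 scale in EASCs against SASCs and 0.95 in PASCs against SASCs, and its partner Rxra fell by 1.30 and 0.93. Mbtps2, a protease that releases SREBP from the membrane, fell by 0.42 and 0.40, and the ligase Rnf139 fell by 0.52 and 0.45. Mlx fell by 0.20 in EASCs against SASCs. Mlxipl, the carbohydrate-responsive factor ChREBP, had 12 to 19 counts per SASCs sample, 0 to 7 per PASCs sample, and 0 in every EASCs sample, where 3 counts correspond to 0.104 to 0.159 CPM over the 9 samples. The genes that passed in no comparison were Scap (76.0, 72.5, and 78.7 CPM on average in SASCs, PASCs, and EASCs), Insig2 (22.8, 25.2, and 23.1 CPM), Mbtps1 (135, 138, and 141 CPM), and Nr1h2 (58.7, 60.9, and 57.3 CPM).

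The counts of the pathway lists around the 10 genes are to be read beside the shares of all genes tested, which were 34.3% lower and 35.5% higher in EASCs against SASCs and 34.6% each way in PASCs against SASCs. Of the 12 genes that supply acetyl-CoA, malonyl-CoA, and NADPH, 5 fell and 5 rose in EASCs against SASCs and 5 fell and 7 rose in PASCs against SASCs, near the shares of all genes for EASCs. Acss2, which makes acetyl-CoA from acetate in the cytosol, was at 86.2 ± 2.71 CPM in SASCs, 20.5 ± 1.12 in PASCs, and 9.91 ± 0.336 in EASCs (SD, n = 3 each). EASCs against SASCs gave a log2 value of -3.12 (adjusted p = 3.36e-23). Me1, the malic enzyme that provides NADPH, was at 47.3 ± 2.28 CPM in SASCs, 100 ± 3.46 in PASCs, and 137 ± 4.13 in EASCs, with a log2 fold change of 1.53 (adjusted p = 8.95e-19) in EASCs against SASCs. The mitochondrial Acss1 fell by 1.99 and 2.03 on the log2 scale in EASCs and PASCs against SASCs. Acacb, the carboxylase of the mitochondrial surface, had 12 to 26 counts per SASCs sample, 2 to 7 per PASCs sample, and 13 to 20 per EASCs sample. It fell by 1.94 on the log2 scale in PASCs against SASCs (adjusted p = 0.00184) and rose by 1.63 in EASCs against PASCs (adjusted p = 0.0215).

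Of the 8 tested genes of the elongation cycle and of other desaturases, 1 fell and 5 rose in EASCs against SASCs, and 1 fell and 4 rose in PASCs against SASCs. Hacd4 and Hacd1, named Ptplad2 and Ptpla in the table, dehydrate the growing chain. Ptplad2 rose by 1.92 and 1.37 and Ptpla by 1.23 and 0.98 on the log2 scale in EASCs and PASCs against SASCs. Elovl4, an elongase of very long chains, was low, at 1.75, 3.07, and 4.21 CPM on average in SASCs, PASCs, and EASCs, and rose by 1.27 in EASCs against SASCs. Tecr, the reductase that ends each cycle, fell by 0.59 and 0.51.

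Among 12 tested genes of fatty acid activation and release, 6 fell and 6 rose in EASCs against SASCs and 5 fell and 5 rose in PASCs against SASCs. Acot7, a thioesterase that releases fatty acids from acyl-CoA, was at 9.92 ± 0.879 CPM in SASCs, 52.2 ± 3.71 in PASCs, and 52.9 ± 1.05 in EASCs (SD, n = 3 each), and Olah, which frees medium chains from fatty acid synthase, rose by 1.49 and 1.43 on the log2 scale. Thrsp, a lipogenic cofactor, had 41 to 62 counts per SASCs sample, 0 to 1 per PASCs sample, and 1 to 7 per EASCs sample. Acsbg1, an acyl-CoA synthetase, had 0 counts in every SASCs and PASCs sample and 18 to 28 in the EASCs samples.

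In the assembly of triglycerides and phospholipids, 8 of 14 tested genes fell and 1 rose in EASCs against SASCs, and 9 fell and 2 rose in PASCs against SASCs. Lpin1, a phosphatidate phosphatase, fell by 2.99 and 2.29 on the log2 scale, Lpcat2 by 2.37 and 1.08, Dgat2, which adds the last chain of a triglyceride, by 2.33 and 1.90, and Gpam, which adds the first, by 1.61 and 1.67. Of 18 tested genes of fatty acid oxidation, 7 fell and 5 rose in EASCs against SASCs, and 7 fell and 6 rose in PASCs against SASCs, near the shares of all genes. Ppara, its transcription factor, fell by 1.78 and 1.80, and Cpt1b by 1.49 and 1.21, and Ehhadh by 1.23 and 1.12, while Cpt1a, which commits fatty acids to the mitochondrion, rose by 0.82 in EASCs against SASCs. Mitochondrial fatty acid synthesis, a separate pathway that feeds lipoate, had 2 genes that fell and 4 that rose among 10 tested in EASCs against SASCs and 1 and 4 in PASCs against SASCs. There, Ndufab1, the acyl carrier protein, rose by 0.75 and 0.88, Mecr by 0.50 and 0.89, and Lipt2 by 0.78 and 0.87, and Cbr4 fell by 0.74 and 0.65.

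**Figure D4:**
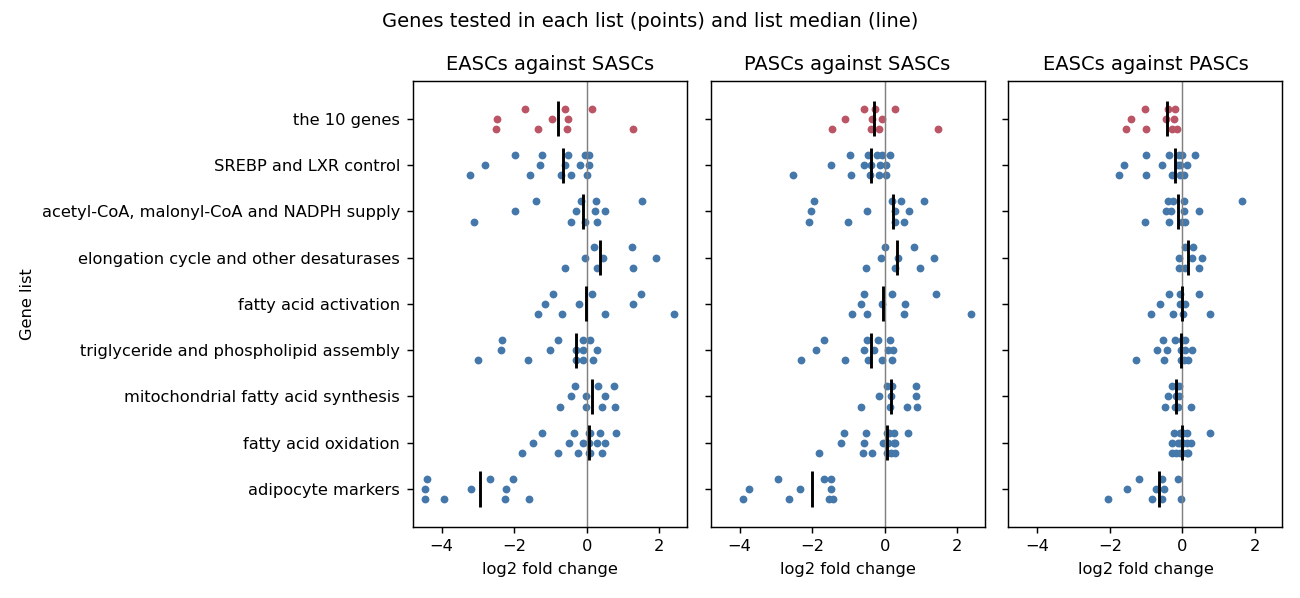
The panels give the log2 fold change of each tested gene (points) and the median (vertical line) for the 10 genes and the lists of related genes in the 3 comparisons. Mlxipl, Thrsp, and Acsbg1, which had 0 counts in at least 1 sample of a group, are left out of the points but not of the medians. The median of the 10 genes was -0.79, -0.30, and -0.43 from left to right. Endothelial and other marker lists are not drawn, and among the lists drawn the adipocyte markers have the lowest median in both comparisons with SASCs.

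Markers of other cell types moved with the groups. Of 12 adipocyte markers, 10 were tested, and all 10 were DEGs with lower expression in both EASCs and PASCs against SASCs, beside 14.2% and 14.9% of all genes, while 7 fell in EASCs against PASCs, beside 14.5% of all genes. Their summed level was 1964 to 2009 CPM for SASCs, 181 to 206 CPM for PASCs, and 161 to 165 CPM for EASCs, and Lpl made up most of it, at 1722 CPM on average in SASCs. Pnpla2 was listed at 0 in every SASCs and EASCs sample and at 0 to 1 counts in the PASCs samples, too few to compare the depots. Adipoq, a defining gene of fat cells, was at 27.2 ± 2.12 CPM in SASCs, 9.68 ± 0.623 in PASCs, and 4.25 ± 0.263 in EASCs (SD, n = 3 each). In EASCs against PASCs, Adipoq was 2.27-fold lower, Plin1 2.88-fold lower, and Cidec 4.18-fold lower, all DEGs. Cidec had only 9 to 14 counts per PASCs sample and 2 to 4 per EASCs sample. Lpl, which sets most of the sum, averaged 115 and 112 CPM in PASCs and EASCs. It did not pass in this comparison, nor did Cebpa and Retn. The order of the adipocyte marker sums was that of the sum of the 10 genes. The part of these markers in the differences of the 10 genes was not tested, and in such bulk samples fewer cells of a type and less RNA per cell cannot be told apart.

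Of 7 tested smooth muscle and pericyte markers, 6 rose and 1 fell in EASCs against SASCs, and 5 rose and 2 fell in PASCs against SASCs. The counts of these and the following marker lists stand beside 35.5% of all genes that rose and 34.3% that fell in EASCs against SASCs, and 34.6% each way in PASCs against SASCs. Rgs5, a pericyte marker, had 20 to 39 counts per SASCs sample, 0 to 4 per PASCs sample, and 2 to 7 per EASCs sample, and Mcam fell in PASCs by 0.22 on the log2 scale. Their summed level was 117 to 122 CPM for SASCs, 1171 to 1205 CPM for PASCs, and 3035 to 3067 CPM for EASCs. All 9 tested macrophage and leukocyte markers rose in EASCs and 8 in PASCs, with sums of 50.7 to 54.3, 122 to 128, and 175 to 187 CPM in SASCs, PASCs, and EASCs, and Cd3e was at 0 in all 9 samples. All 6 tested mesothelial markers rose in both, with sums of 18.5 to 20.1, 94.5 to 101, and 129 to 141 CPM, and Krt18 was at 0 in SASCs, Krt19 in PASCs, and Cdh1 in EASCs. The endothelial markers summed to 44.5 to 46.3, 11.7 to 14.7, and 30.6 to 33.5 CPM. Of 6 tested, 5 fell and 1 rose in PASCs against SASCs, 3 fell and 1 rose in EASCs against SASCs, and 5 rose in EASCs against PASCs, beside 16.1% of all genes. Tek, an endothelial receptor, was the one that rose against SASCs, from a mean of 2.55 CPM to 8.30 CPM for PASCs and 8.08 CPM for EASCs, and made up most of the sum in PASCs. The part of these cell types in the differences of the 10 genes was not tested either. The mesenchymal markers of the labelled cell type were above the level of 3 counts in every group, for all 8 found, and summed to 4137 to 4265 CPM for SASCs, 3784 to 3960 CPM for PASCs, and 4962 to 5032 CPM for EASCs. Of the 8, 3 fell and 4 rose in each comparison with SASCs, near the shares of all genes, and 2 fell and 4 rose in EASCs against PASCs, beside 14.5% and 16.1% of all genes. Pdgfra was 6.58-fold lower in EASCs and 5.55-fold lower in PASCs than in SASCs, and Cd34 was 5.46-fold lower in PASCs. Itgb1 and Eng were 2.82-fold and 3.41-fold higher in EASCs than in SASCs. Ribosomal RNA took 10.4% to 15.5% of SASCs counts, 22.4% to 32.9% of PASCs counts, and 15.9% to 40.3% of EASCs counts, and the log2 fold changes of the 10 genes kept their signs when its genes were removed. The total counts lay between 17591916 and 30299032 per sample.

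The genes whose log2 CPM over the 9 samples most resembled that of Fasn were Angpt4, with a Pearson r of 0.996, and Hdac7, Sod3, Lrrc45, and Thada, each at 0.993 or 0.994. Since the points fall into 3 groups, such values describe mainly a shared order of the groups, and 430 of 14769 genes (2.91%) exceeded 0.95. Within the 10 genes, Fads1 stood at 0.992, Elovl5 at 0.966, Acaca at 0.955, Fads2 at 0.924, Elovl6 at 0.911, Acly at 0.883, and Scd at 0.858, whereas Elovl1 stood at -0.53 and Fads3 at -0.83.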

How the data were processed

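P3 SASCs, PASCs, and EASCs (9 samples, 3 per group; the methods give 6 replicates per group) were grouped by their labels. The authors trimmed paired-end reads, aligned them with TopHat (rn6 in the methods, rn5 in the submitters' processing notes), and deposited raw counts per gene. The tool that counted the reads and its use of strand are not given in the sources used here. The deposited table also gives a gene length in bases, which was used as it stands.

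Counts were analysed with edgeR 4.0.16 (R 4.3.3): TMM (factors 0.740 to 1.23), filterByExpr, and 1 quasi-likelihood fit of all 9 samples without a block, with Benjamini-Hochberg adjustment over 14770 genes. The test of the methods, DEGseq, needs no replicates and was replaced. A gene was called a DEG at an adjusted p-value under 0.05 when its fold change exceeded 2. Total counts of 17591916 to 30299032 put 3 counts at 0.104 to 0.159 CPM, a limit of counting error only. Replicates differed by more than sampling noise (chi-square per degree of freedom 6.15 to 281). This value used raw counts with ribosomal RNA genes included. The 281 was for EASCs replicates 2 and 3, with 15.9% and 40.3% ribosomal RNA. The common coefficient of variation between replicates in the fit was 0.0685.

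The 10 genes and all lists were chosen with earlier results of these data known. Named were the 10 genes, the SREBP and LXR list, at most 4 genes with the largest fold change of each other pathway list, and the 5 genes most like Fasn. Some genes of the SREBP and LXR list are not reported here, and the counts of that list leave them out. Scd1, LOC102549542, and the cell type markers named in the text were added after their values were seen. Of the lists, all genes but 2 were found by symbol or gene identifier. Alternatives were DESeq2 1.42.0, limma 3.58.1 on log2(FPKM + 1) and log2(CPM + 1), other filters, samples, scalings, and thresholds, a replicate block, and each replicate left out.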

Additional observations from a re-analysis of the deposited data

How the results depend on the processing

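The direction of the 10 genes held under the alternatives run, with the exceptions given here. Without TMM, the median log2 fold change of the 10 genes was -1.18 in EASCs against SASCs, -0.62 in PASCs against SASCs, and -0.50 in EASCs against PASCs, and with limma on log2(FPKM + 1) it was -0.94 and -0.59 in the first pair. Both settings omit the scaling that centres the median of all genes. Elovl1 was then at -0.26 and -0.27 in EASCs against SASCs and at -0.049 and -0.047 in PASCs against SASCs. Under these settings 0 of the 10 genes were DEGs with higher expression in EASCs against SASCs, since Fads3 lost its fold change above 2. This count stands beside 15.3% of all genes that rose in this comparison under either setting, of which DEGs are only a part. At such a share, 0 of 10 does not set the genes apart. Acly in PASCs against SASCs passed under these settings. In EASCs against PASCs, 6 of the 10 genes passed under them in place of 10, beside 7.14% and 6.66% of all genes that fell. DEGs with lower expression numbered 1 in PASCs against SASCs with limma on either scale and 2 in EASCs against PASCs with limma on log2(CPM + 1), where Elovl6 was not among them, beside 9.61% and 9.09% of all genes in the first and 1.04% in the last; the cause was not tested. In EASCs against SASCs, 4 genes were DEGs with lower expression with limma on log2(FPKM + 1) as with edgeR, with Fasn in and Elovl6 out. These counts stand beside 10.7% and 14.2% of all genes. With each replicate left out, the medians were -0.82 to -0.74 in EASCs against SASCs and -0.32 to -0.26 in PASCs against SASCs. In EASCs against PASCs they were -0.46 to -0.39. In the order of these comparisons, DEGs with lower expression numbered 4 to 5 (with Fasn), 1 to 2, and 2 to 4. They stand beside 13.8% to 14.8%, 14.3% to 15.3%, and 2.01% to 2.16% of all genes, and the 1 to 2 are near their share. The summed counts of Fads2 and Fads3 gave 0.088 in EASCs against SASCs and 0.54 in PASCs against SASCs. This sum mixes opposite changes and describes neither gene alone. Over all genes, DEGs numbered 4105, 3979, and 1091 in the main fit, 2215, 2039, and 251 with limma on FPKM, and 2648, 2542, and 506 with limma on CPM.

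Over all genes tested, samples with the same replicate number did not deviate together (r from -0.03 to 0.04). With 3 samples per group this check is weak, and it cannot exclude that equal numbers share an animal or a batch. With the replicate block, DEGs over all genes numbered 4061, 3944, and 1067. In EASCs against SASCs, 4 of the 10 genes were then DEGs with lower expression, beside 14.1% of all genes. As in the main fit, 1 was a DEG with higher expression, where the share of all genes in the main fit was 13.6%. No genome annotation of the build was used here, so lengths from exons were not run.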
